A study of Mus musculus with 2 samples.

Results

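In differentiated (D) organoids of the mouse bladder epithelium, or urothelium, 1040 of 4896 kept cells were set apart by a score of 6 genes. They were chosen by measured values. The 15% of kept cells with the most uroplakin transcripts (734 cells) were put aside, and the upper 25% of the remaining 4162 cells, ranked on the mean log level of Reg1, Krt1, Agr2, Tspan1, Lgi2 and Cyp2f2, were taken. Over both libraries of the series 11714 of 15169 deposited cell barcodes were kept. The group had been labelled Reg1 and Krt1 intermediate cells, but far fewer of its cells held Reg1 or Krt1 than Cyp2f2. Of the 1040 cells, 94.2% held a transcript of Cyp2f2, 18.8% one of Krt1 and 1.54% one of Reg1. Cyp2f2 was also found in 24.9% of the other remaining D cells and 45.9% of the cells put aside. By ratio to all other kept D cells, Krt1 was the furthest above of the 6 genes. Its log2 ratio was 3.69, against 2.59 for Cyp2f2. Summed per cell, intermediate markers lay between the other groups. Their median was 48.5 transcripts per 10000, against 26.3 in the other remaining D cells and 87.1 in the cells put aside. No single intermediate marker was 2-fold above the other remaining D cells. The 1040 cells are called Cyp2f2-high cells here, after the gene that gave 64.5% of their summed score. They are a range of a score and not a cell type.

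The organoids were grown from wild-type C57BL/6 mice of 8 to 10 weeks and were mostly studied below passage 10. Proliferative (P) organoids stayed in complete medium. D organoids had 7 days in complete medium, were reseeded, and had 7 further days without WNT3A and RSPO1 conditioned medium, EGF, Noggin and LY2157299, which inhibits the TGF-β receptor. Each condition was measured as 1 droplet library (10x Genomics 3′ chemistry) of unsorted cells, so no difference below has a replicate check and no p-value is given. Intervals are exact 95% intervals for counting error only, and levels are transcripts counted by unique molecular identifiers (UMIs) per 1000000 UMIs (CPM). A 3′ library gives no levels per gene length, so levels are compared between groups of cells and not between genes.

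The urothelium is built from basal cells that rest on the basement membrane and carry Krt5 and Krt14, intermediate cells above them, and luminal umbrella cells whose apical face is paved with uroplakins. Cyp2f2 encodes a cytochrome P450 best known from the club cells of the airway, where it oxidises inhaled compounds such as naphthalene. Of the other score genes, Agr2 encodes a protein disulphide isomerase of the endoplasmic reticulum that secretory cells need for mucins, Tspan1 a tetraspanin of the cell surface, Krt1 a keratin of the suprabasal epidermis, Lgi2 a secreted leucine-rich repeat protein and Reg1 a secreted C-type lectin. Tff1, which was a given marker but not part of the score, encodes a trefoil peptide.

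The bases upstream of Cyp2f2, Tspan1 and Agr2 are shown because these 3 genes carried most of the summed score and met in the same cells, as described below. Each run is 5′ to 3′ on the strand of the gene, covers 250 to 51 bases before the RefSeq start (GRCm38.p6) and overlaps no annotated exon. Capitals mark matches, on either strand, to TGANTCA for AP-1, AGATAA for GATA factors, TGTTTNC for FOXA factors, TGGGAA for RBPJ or TGACNNNGC for the antioxidant response.
Cyp2f2, chr7:27119705-27119904, plus strand: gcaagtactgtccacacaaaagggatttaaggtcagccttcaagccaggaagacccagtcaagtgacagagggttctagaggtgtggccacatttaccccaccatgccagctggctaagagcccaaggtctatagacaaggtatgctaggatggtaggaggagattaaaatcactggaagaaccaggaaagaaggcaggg
Tspan1, chr4:116167649-116167848, minus strand: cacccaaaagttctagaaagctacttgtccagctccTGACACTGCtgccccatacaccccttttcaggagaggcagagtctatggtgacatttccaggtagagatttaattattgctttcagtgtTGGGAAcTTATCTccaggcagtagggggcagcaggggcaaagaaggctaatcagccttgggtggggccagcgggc
Agr2, chr12:35992675-35992874, plus strand: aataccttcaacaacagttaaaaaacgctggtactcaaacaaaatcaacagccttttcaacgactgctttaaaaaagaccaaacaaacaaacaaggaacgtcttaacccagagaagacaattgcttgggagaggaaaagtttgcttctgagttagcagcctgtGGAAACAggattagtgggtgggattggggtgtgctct
The Cyp2f2 window held none of the 5 motifs, that of Tspan1 held 1 GATA, 1 RBPJ and 1 antioxidant response match, and that of Agr2 held 1 FOXA match. Over the 27025 promoters of the RefSeq table, 5.74% of windows held an AP-1 match, 8.71% a GATA, 14.9% a FOXA, 17.9% an RBPJ and 7.67% an antioxidant response match. Of the 35 genes at least 2-fold higher in Cyp2f2-high cells than in all other D cells, 23 had a window, and 2, 2, 5, 4 and 3 of these held the 5 motifs in that order. Such matches are letters in a window and not binding sites.

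To describe what the score selected, its parts were taken one by one. Cyp2f2 gave 64.5% of the summed score, Tspan1 14.8%, Krt1 9.94%, Agr2 5.61%, Lgi2 4.52% and Reg1 0.614%. The cells held a median of 5 UMIs of the 6 genes, from 2 to 35, and 130 cells held 2. Only 1 score gene was detected in 387 cells, 2 genes in 511, 3 in 124, 4 in 17 and 5 in 1 cell, while no cell held all 6. Cyp2f2 alone was found in 344 cells and Cyp2f2 with Tspan1 in 266. Cyp2f2 with Krt1 was found in 86 cells, and Krt1 alone in 35. The scores ran from 0.360 to 1.71 with a median of 0.520, the highest cell left out had the same score as the lowest one taken, and 420 cells lay within 0.05 of that threshold. Of the 3122 other remaining cells, 2104 held no UMI of any score gene.

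Depth differed between the groups. The median was 3464.5 UMIs per Cyp2f2-high cell, 3004.5 per other remaining cell and 3998.5 per uroplakin-high cell, and the median mitochondrial share 7.29%, 6.28% and 7.75%. After each cell was thinned to 2100 UMIs (993, 2712 and 712 cells of the groups were deep enough), Cyp2f2 was detected in 82.9% of Cyp2f2-high cells (95% interval 80.4 to 85.2%), 18.4% of other remaining cells (17.0 to 19.9%) and 33.3% of uroplakin-high cells (29.8 to 36.9%). The unthinned shares were 94.2%, 24.9% and 45.9%. Cells with an Acta2 UMI outside the uroplakin-high group held a Cyp2f2 UMI in 24.1% (18.4 to 30.6%, median 3971 UMIs). Of these 203 cells, 16 were Cyp2f2-high and 187 were other remaining cells. Thinned to 2100 UMIs, 15.03% of 193 such cells (10.3 to 20.9%) held one. Since most of them are themselves other remaining cells, this share is no separate measure of background.

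Cyp2f2 (chromosome 7, 27119909 to 27133660, GRCm38, protein-coding) was at 923 CPM in Cyp2f2-high cells (897 to 950), 113 in the other remaining cells (107 to 119), 279 in uroplakin-high cells (262 to 296) and 24.4 in the P library (22.6 to 26.4). Tspan1 (chromosome 4, 116161869 to 116167601) was at 112, 12.3, 23.8 and 15.2 CPM in the same order. The Cyp2f2-high and other remaining cells were divided on these genes and the uroplakin-high cells were not, so the order of the 3 groups is set in part by the rule. Agr2 (chromosome 12, 35992907 to 36004087) stood at 39.7, 2.85, 10.4 and 19.6 CPM, so that its level in P was above that in the D cells outside the group. Krt1 (chromosome 15, 101845426 to 101850794) was at 123 CPM (114 to 133), 10.9 (9.05 to 12.9), 5.61 (3.47 to 8.57) and 12.2 (10.9 to 13.6), so that uroplakin-high cells held the least of it. Lgi2 (chromosome 5, 52533517 to 52566462) was at 30.01, 3.45, 4.01 and 2.55 CPM, with little between the groups outside the Cyp2f2-high cells.

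Reg1 (chromosome 6, 78422711 to 78428667) rested on very few cells. It had 51 UMIs in 16 Cyp2f2-high cells, of which 1 cell held 21, against 7 UMIs in 6 other remaining cells, 83 UMIs in 5 uroplakin-high cells and 2 UMIs in the P library. Among the uroplakin-high cells 1 cell held 57 and another 20, and these 2 cells put the group at 22.2 CPM (17.7 to 27.5), above the 10.3 CPM (7.65 to 13.5) of Cyp2f2-high cells. Without them the uroplakin-high level was 1.60 CPM (0.589 to 3.49). Of its family, Reg2, Reg3a, Reg3b, Reg3d and Reg4 had 0 UMIs in Cyp2f2-high cells, which allows up to 0.604 CPM (3 counts), and Reg3g, an antimicrobial lectin, had 33, with 6.65 CPM there, 3.28 in other remaining and 16.0 in uroplakin-high cells. Extl3, a proposed receptor of Reg proteins, had 57 UMIs and was lower than in the other remaining cells, at 11.5 against 16.1 CPM. Tff1 (chromosome 17, 31161395 to 31165277) was at 16.5 CPM (13.1 to 20.5) in Cyp2f2-high cells, 4.40 (3.27 to 5.78) in the other remaining and 10.7 (7.63 to 14.5) in uroplakin-high cells. It was detected in 36 Cyp2f2-high cells (3.46%), 28 other remaining cells (0.897%) and 24 uroplakin-high cells (3.27%). Of its UMIs, 1 Cyp2f2-high cell held 12 of 82 and 1 other remaining cell 17 of 51.

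**Figure D1:**
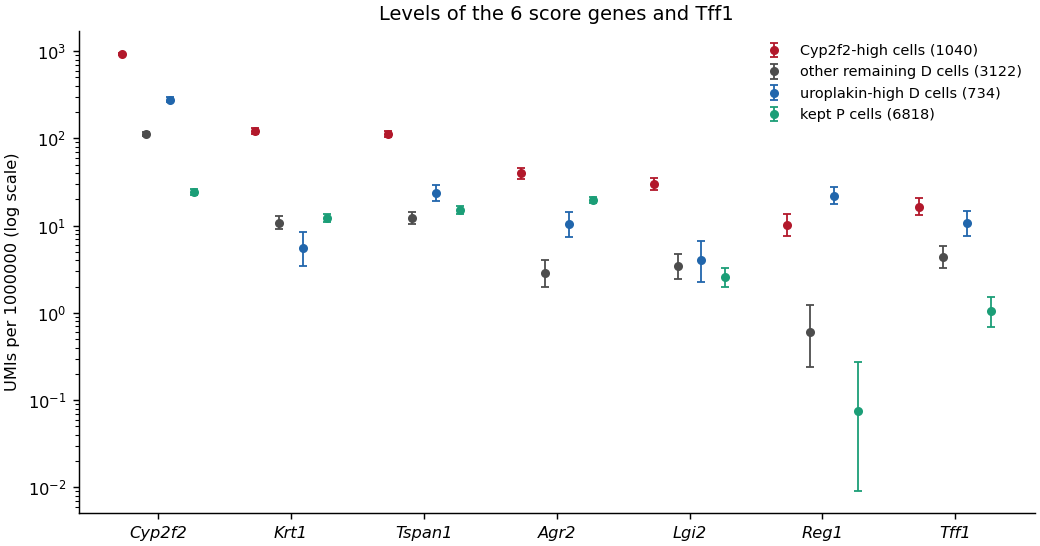
Levels of the 6 score genes and of Tff1 (UMIs per 1000000, log scale) in Cyp2f2-high cells, other remaining D cells, uroplakin-high D cells and kept P cells, with exact 95% Poisson intervals that cover counting error only. Cyp2f2 reaches 923 CPM in Cyp2f2-high cells, and Reg1 is at 22.2 CPM in uroplakin-high cells, where 2 cells hold most of its UMIs.

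Because the score and the levels above came from the same UMIs, each UMI was also assigned at random to 1 of 2 equal sets, cells were chosen on the first set, and levels were read from the second. Cyp2f2 was then at 800 CPM against 214 in all other D cells, a log2 ratio of 1.90 (1.81 to 2.0) in place of 2.59. The ratio was 2.57 (2.26 to 2.89) for Krt1, 1.78 (1.29 to 2.27) for Agr2, 1.56 (1.27 to 1.86) for Tspan1 and 1.33 (0.72 to 1.94) for Lgi2. It was 0.02 (-0.89 to 0.85) for Reg1, whose interval spans no difference. All of these were lower than the ratios on the full counts, which for Krt1, Agr2, Tspan1, Lgi2 and Reg1 were 3.69, 3.08, 2.89, 3.07 and 0.81. Tff1, which took no part in the choice, had 1.65 (1.0 to 2.30) against 1.48 (1.03 to 1.92) on the full counts. Against the other remaining cells alone, Reg1 was at 3.75 (1.94 to 6.17) by the second set, with 16 UMIs in the chosen cells. Of the cells chosen on the first set, 75.2% were Cyp2f2-high cells by the full counts.

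To find which score genes occurred in the same cells, the 3705 D cells outside the uroplakin-high group with at least 2100 UMIs were thinned to that depth. Cyp2f2 and Agr2 were found together in 67 cells, where the product of their shares gives 34.6. Cyp2f2 and Tspan1 were found together in 182 (product 100), and Agr2 and Tspan1 in 17 (product 7.36). These 3 pairs therefore met more often than the product. Krt1 behaved otherwise, with 58 cells shared with Cyp2f2 (product 64.2) and 8 with Tspan1 (product 13.7), though 9 with Lgi2 (product 4.32). Lgi2 was found with Cyp2f2 in 52 cells (product 31.8) and with Tspan1 in 2 (product 6.75).

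The P library, which took no part in the choice of the cells, was read in the same way. Among its 6638 cells of that depth, Cyp2f2 and Agr2 were found together in 39 cells (product 5.23), Cyp2f2 and Tspan1 in 32 (product 4.70) and Agr2 and Tspan1 in 24 (product 4.29). Krt1 was found with Cyp2f2 in 3 cells (product 3.29), with Agr2 in 2 (product 3.00) and with Tspan1 in 2 (product 2.70). The pairs with Lgi2 were not repeated in P, where it was found with Cyp2f2 in 1 cell (product 0.969), with Tspan1 in 1 (product 0.795) and with Krt1 in 0 (product 0.557). In both libraries, then, Cyp2f2, Agr2 and Tspan1 met in the same cells above the product of their shares, and Krt1 did not exceed it with Cyp2f2 or Tspan1. These are descriptions of 2 libraries with small counts.

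To see how far Cyp2f2-high cells differed from all other kept D cells, the 9398 genes with at least 100 UMIs over the kept D cells were compared. Of these, 35 genes (0.372%) were at least 2-fold higher and 199 genes (2.12%) at least 2-fold lower in Cyp2f2-high cells, and the median log2 ratio of all genes was -0.02. The cells were chosen on 6 of the genes and each ratio is a description. Among the genes furthest above were, beside Krt1, Agr2, Lgi2, Tspan1, Cyp2f2 and Tff1, the genes Ces1d, Akr1c18, Khdrbs2, Mlph, Slc7a11, Lgals4, Prom1, Akr1c12 and Gsta3.

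Several of these encode enzymes. Ces1d, a carboxylesterase that cleaves ester drugs and lipids, had 72 UMIs at 14.5 CPM (11.3 to 18.3) in Cyp2f2-high cells against 1.72 (1.05 to 2.66) in the other remaining cells and 3.47 (1.85 to 5.94) in uroplakin-high cells. Akr1c18, an aldo-keto reductase that reduces progesterone, was at 73.9 CPM against 27.3 and 24.6, and its neighbour Akr1c12 at 57.2 against 26.1 and 17.9. Gsta3, a glutathione S-transferase, was at 55.6 CPM against 22.0 and 30.2. Ces1d, the Akr1c genes and Gsta3 have close paralogs, so that some of their reads could belong to a neighbour. Slc7a11, the cystine carrier that feeds glutathione synthesis, was at 24.8 CPM against 10.4 and 9.08. In each of these 5 genes the Cyp2f2-high interval lay above both other intervals.

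The remaining leading genes have other roles. Mlph, a linker of secretory granules to myosin, was at 17.9 CPM (14.4 to 22.1) against 5.95 (4.63 to 7.53) in the other remaining cells and 9.35 (6.51 to 13.0) in uroplakin-high cells. Lgals4, a galectin of apical trafficking in gut epithelium, was at 54.99 CPM against 20.1 and 30.4. Prom1, a pentaspan protein of apical protrusions, was at 10.7 CPM (8.00 to 14.0) against 4.05 (2.98 to 5.39) and 5.87 (3.68 to 8.89), so that its interval met that of uroplakin-high cells. Khdrbs2, an RNA-binding splicing regulator, was at 41.7 CPM against 14.7 and 17.1. With cells chosen on one set of the UMIs, the log2 ratios over all other D cells from the second set were 2.23 for Ces1d, 1.28 for Akr1c18, 1.35 for Khdrbs2, 1.2 for Mlph, 1.39 for Slc7a11, 1.39 for Lgals4, 1.17 for Prom1, 1.08 for Akr1c12 and 0.97 for Gsta3. All 9 stayed above 0 with intervals that did not include it. The 9 genes had been picked on the full counts, which include the second set, so this is not an independent check.

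The genes furthest below were Serpinb1b, Krt17, Acta2, Upk3a, Tnc, Ms4a10, Cav1, Stbd1, Mgat4c, Defb2, Htra1, Serpinb6b, Pak3, Stmn2 and Emp3. Krt17, a keratin of basal and wounded epithelia, was at 4.43 CPM in Cyp2f2-high cells, 71.0 in other remaining and 12.02 in uroplakin-high cells. Acta2, the smooth muscle actin, was at 5.04, 68.6 and 4.27 CPM. Htra1, a secreted serine protease, was at 15.9, 166 and 10.7 CPM, and Tnc, the matrix protein tenascin C, at 1.01, 12.4 and 0.534. For Acta2, Htra1 and Tnc the gap was therefore to the other remaining cells alone, and the Cyp2f2-high level was near that of uroplakin-high cells. Serpinb6b, a protease inhibitor, was below both, at 23.4 CPM against 130 and 319. Serpinb1b rested on 2 UMIs in Cyp2f2-high cells, with a log2 ratio of -4.14 (-7.20 to -2.25).

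**Figure D2:**
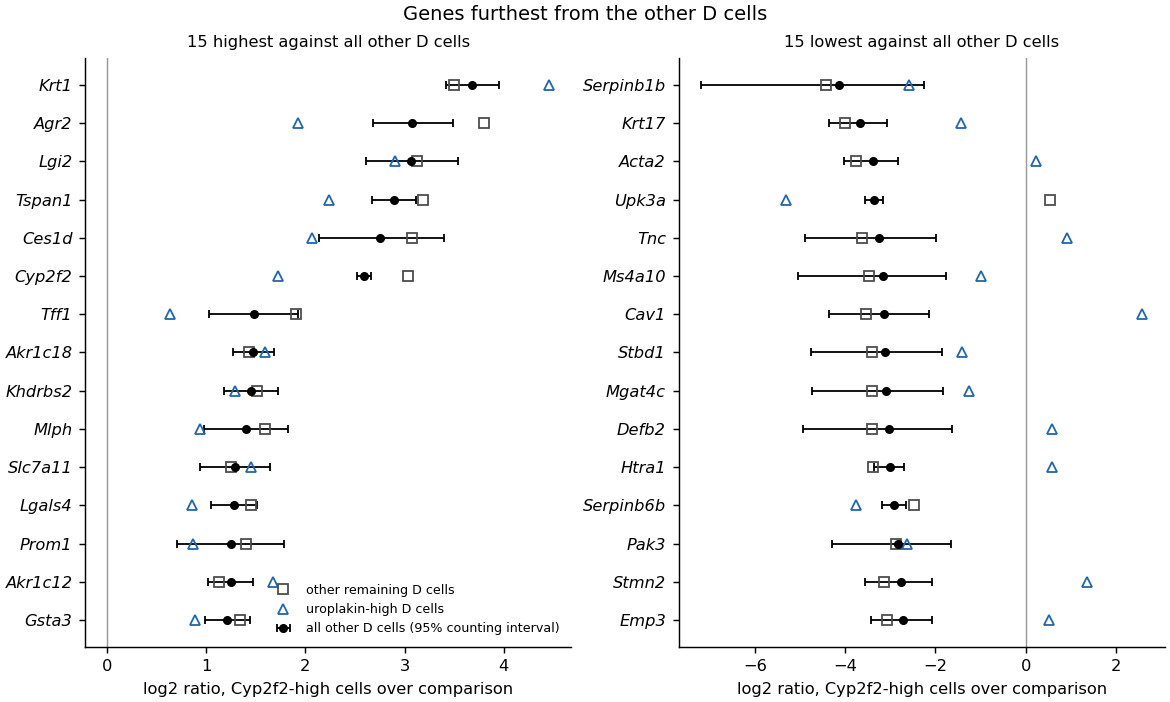
Log2 ratios of Cyp2f2-high cells over all other kept D cells (black, exact 95% counting interval), over the other remaining D cells (squares) and over uroplakin-high D cells (triangles) for the 15 genes furthest above and the 15 furthest below. Acta2 is at -3.39 against all other D cells and at 0.24 against uroplakin-high cells, while Krt1 is above 3 in all comparisons.

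The other D cells hold both ends of the tissue, so Cyp2f2-high cells were next set against each neighbour alone. Against the other remaining cells, 58 of 8991 genes (0.645%) were at least 2-fold higher and 226 (2.51%) at least 2-fold lower. Against uroplakin-high cells, 118 of 7260 genes (1.63%) were at least 2-fold higher and 152 (2.09%) at least 2-fold lower. Values below are levels in CPM unless they are named as log2 ratios, and list medians are medians of log2 ratios.

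Uroplakins, which the rule used only to put aside the highest cells, were between the groups. Upk1a was at 404 CPM in Cyp2f2-high cells (386 to 422), 196 in the other remaining cells (188 to 204) and 1443 in uroplakin-high cells. Upk2 was at 29.6, 17.5 and 109 CPM and Upk3a at 42.3, 29.0 and 1692. Upk1b was at 175, 148 and 1355 CPM. Against the other remaining cells the log2 ratio was 1.04 for Upk1a, 0.76 for Upk2, 0.55 for Upk3a, 0.24 for Upk1b and 0.14 (-0.78 to 1.01) for Upk3b, whose interval spans no difference. Since both groups lay below the uroplakin cut of 19.0 UMIs per 10000, levels above it could not occur in either.

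Intermediate markers were somewhat higher than in the other remaining cells. Summed over the list, the median cell held 48.5 UMIs per 10000 (quartiles 35.1 and 62.3) against 26.3 (13.04 and 48.65) in the other remaining and 87.1 in uroplakin-high cells. Gene by gene, of 9 markers, 8 were above the other remaining cells and none by 2-fold, with a median log2 ratio of 0.19 beside -0.04 for all genes. Foxq1, a forkhead factor, was at 940 CPM against 592, Psca, a surface antigen of the upper urothelium, at 1671 against 1122, and Klf5, a Krüppel-like factor, at 664 against 455. Krt8 and Krt18, the paired keratins of simple epithelia, were nearly level, at 958 against 964 CPM and at 489 against 472. Against uroplakin-high cells 4 of the 9 were at least 2-fold lower, among them Krt18, Krt8 and Psca with log2 ratios of -1.94, -1.65 and -1.17.

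Basal markers were mostly lower. Of 7, 6 were below the other remaining cells and 1 above, with a median of -0.45. At least 2-fold lower were 3, and none was at least 2-fold higher. Krt14 was at 1350 CPM against 5730, Col17a1, a hemidesmosome collagen, at 123 against 305, and Itgb4, an integrin of the same junction, at 52.2 against 113. Trp63, the basal transcription factor, was at 71.9 against 98.3 CPM, and Cd44 at 116 against 106, whose intervals met. Krt5, the partner keratin of Krt14, was at 4039 against 4528 CPM. Against uroplakin-high cells 3 basal markers were at least 2-fold higher, with Col17a1 at log2 1.80 and Trp63 at 1.72.

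Among stratified keratins, Krt15, a keratin of basal cells, was at 9916 CPM against 6542 in the other remaining and 6415 in uroplakin-high cells. Krt4, of the suprabasal mucosa, was at 1696 against 1004 and 1891. Krt13, its usual partner, was at 48.3 against 30.8 and 13.1. Krt16 and Krt17, which mark activated keratinocytes, were at 11.5 against 72.5 and at 4.43 against 71.0 CPM. These 2 were the members of the list of 7 that were at least 2-fold lower, and none was at least 2-fold higher.

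Of the lists with at least 5 genes counted, the contractile genes had the lowest median. Of 10, 9 were at least 2-fold lower than in the other remaining cells and none higher, with a median log2 ratio of -2.11. Cald1, the actin regulator caldesmon, was at 17.9 CPM against 141, Cav1, the caveolar coat protein, at 1.61 against 18.7, and Myl9, a myosin light chain, at 0.201 against 7.85, with 1 UMI in Cyp2f2-high cells. Against uroplakin-high cells none of the 7 counted was 2-fold away, with a median of 0.01. Of 9 proliferation genes with at least 20 UMIs, 6 were at least 2-fold lower than in the other remaining cells, among them Cenpf, a kinetochore protein, at 1.41 against 8.97 CPM, and Ube2c, a mitotic ubiquitin carrier, at 0.403 against 4.31. Pcna, the replication clamp, was level at 13.7 against 13.2.

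Enzymes of xenobiotic metabolism lay mostly above the other remaining cells. Of 12 oxidative and reductive enzymes counted, 11 were above and 2 at least 2-fold, with a median of 0.65. Adh7, the alcohol dehydrogenase of retinol oxidation, was at 100.3 CPM against 45.4, Cbr2, a carbonyl reductase, at 4856 against 2405, Fmo2, a flavin monooxygenase, at 248 against 129 and Aldh1a1, a retinal dehydrogenase, at 122 against 64.6. Of 16 glutathione and glucuronosyl transferases, 15 were above and 3 at least 2-fold, with a median of 0.49. Gstm1 was at 3107 against 1453 CPM, Gsta2 at 34.0 against 16.5 and Ugt2b34 at 449 against 225 (log2 0.99). Against uroplakin-high cells the medians of both lists were smaller, at 0.29 and 0.19, and Gstm1 was higher there, at 4334 CPM. NRF2 targets, which answer oxidative stress, had a median of 0.13, and 1 of 8 was at least 2-fold higher, Slc7a11.

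Of the genes of secretion and defence, 6 of 14 were counted, of which 1, Tff1, was at least 2-fold higher and 2, Clu and Slpi, at least 2-fold lower. Wfdc2, a secreted protease inhibitor, was at 1798 CPM against 982, and Pigr, the receptor that carries IgA across epithelia, at 16.3 against 8.45. Clu, the secreted chaperone clusterin, was at 490 CPM against 1001 in the other remaining and 3431 in uroplakin-high cells. Slpi, a leukocyte protease inhibitor, was at 0.604 against 2.59 CPM, from 3 UMIs. The 16 folding genes of the endoplasmic reticulum, among which Agr2 acts, had a median of -0.04 and none was 2-fold away. Among the 12 other tetraspanins, 1 was at least 2-fold higher, Tspan13, at 56.0 against 24.7 CPM, while Tspan8 was at 349 against 220 and Cd81 at 192 against 281. Urothelial transcription factors were mostly a little higher, 12 of 14, none by 2-fold, with Elf3, an ETS factor, at 174 against 115 CPM and Foxa1 at 144 against 108.

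Of 10 Notch genes, 3 were at least 2-fold lower. Dll1 and Jag2, ligands of the pathway, were at 2.22 against 12.9 and at 13.1 against 43.0 CPM, and Lfng, which modifies the receptors, at 3.22 against 10.8. The receptor Notch1 was at 223 against 203 CPM and the targets Hes1 and Nrarp at 1508 against 1146 and 98.5 against 71.3. These ligands and targets thus lay on opposite sides of the other remaining cells. Of 9 Wnt genes, 2 were at least 2-fold lower. The ligand Wnt10a was at 9.47 against 69.7 CPM, and Axin2, a target with 8 UMIs, at 1.61 against 3.97. Wls, which exports Wnt ligands, was at 325 against 532, and Wnt5a at 50.2 against 79.1.

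Early-response genes, which dissociation of tissue can induce, were above the other remaining cells for 13 of 14 genes, none by 2-fold, with a median of 0.36. Fos was at 780 CPM against 531 and Atf3 at 112 against 66.7. Of 10 hypoxia genes 9 were below, with a median of -0.30, and Ndrg1 was at least 2-fold lower. Their part in the other differences was not tested. The lists of tight junction, apical vesicle traffic and water and ion transport genes had medians of 0.22, 0.10 and 0.15 and no gene 2-fold away, and those of simple epithelial keratins and cornified envelope genes had medians of -0.01 and -0.17. Of the 5 genes counted in each of these, Krt23 was at least 2-fold lower, at 4.43 against 11.6 CPM, as were Lor at 5.84 against 15.3 and Sprr3, with 3 UMIs, at 0.604 against 3.02. Ribosomal protein genes took 21.0% of UMIs in Cyp2f2-high and 20.6% in other remaining cells.

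Most markers of other cell types had few or no UMIs, with Laptm5, Dcn and Cd68 as the exceptions. Of 6 leukocyte markers, Ptprc, Tyrobp, Cd52 and Cd3e had 0 UMIs in Cyp2f2-high cells, while Cd68 had 34 and Laptm5, a lysosomal membrane protein, had 171 and was at 34.4 CPM against 12.6 in the other remaining and 22.2 in uroplakin-high cells. All 4 erythroid markers were at 0. Among 8 club and goblet cell markers, Scgb1a1, which defines airway club cells together with Cyp2f2, had 11 UMIs at 2.22 CPM against 2.67 in the other remaining cells, and Scgb3a1, Scgb3a2, Muc5ac and Muc5b had 0. The 8 pancreatic acinar markers had 0 UMIs apart from 4 of Prss2. The 6 fibroblast markers held 79 UMIs of Dcn, 1 each of Col1a1 and Col3a1 and no other, and Dcn was lower than in the other remaining cells, at 15.9 against 96.8 CPM. Endothelial markers held 11 and neuroendocrine markers 5 UMIs in all.

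**Figure D3:**
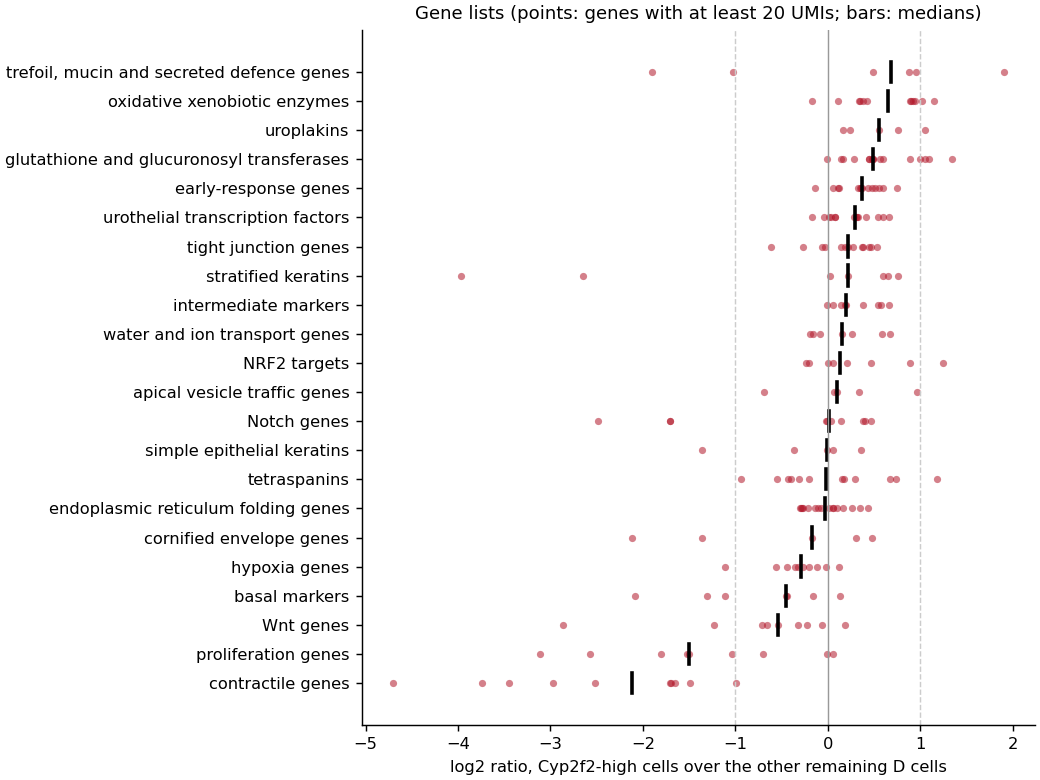
Log2 ratios of Cyp2f2-high cells over the other remaining D cells, 1 point for each gene with at least 20 UMIs in both groups together, with 0.5 UMI added to each count, for every list with at least 5 such genes other than the score genes. Bars are list medians, dashed lines mark 2-fold, and the contractile genes have the lowest median, -2.11.

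To show whether the score divided cells sharply, the D cells outside the uroplakin-high group were taken in 4 ranges of the score: 2104 cells at 0, 1018 above 0 and below the threshold, and the lower and upper 520 of the Cyp2f2-high cells. Krt14 was at 7826, 2874, 1539 and 1154 CPM in this order, Tpm1 at 1055, 480, 273 and 223, and Wnt10a at 102, 26.1, 9.89 and 9.03. In CPM, most of each difference lay between score 0 and the cells above 0 and below the threshold. Krt5 differed less, at 4535, 4520, 4102 and 3973 CPM. Cbr2 was at 1601, 3501, 4606 and 5116 CPM, Gstm1 at 900, 2206, 3007 and 3211, and Upk1a at 118, 302, 397 and 411. Psca was nearly level from the second range on, at 762, 1612, 1702 and 1638. Tff1 was at 1.5, 8.35, 9.10 and 24.2 CPM. Median UMIs per cell were 2783, 3554, 3531 and 3427, so that depth moved with the step from score 0, and its part was not tested.

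**Figure D4:**
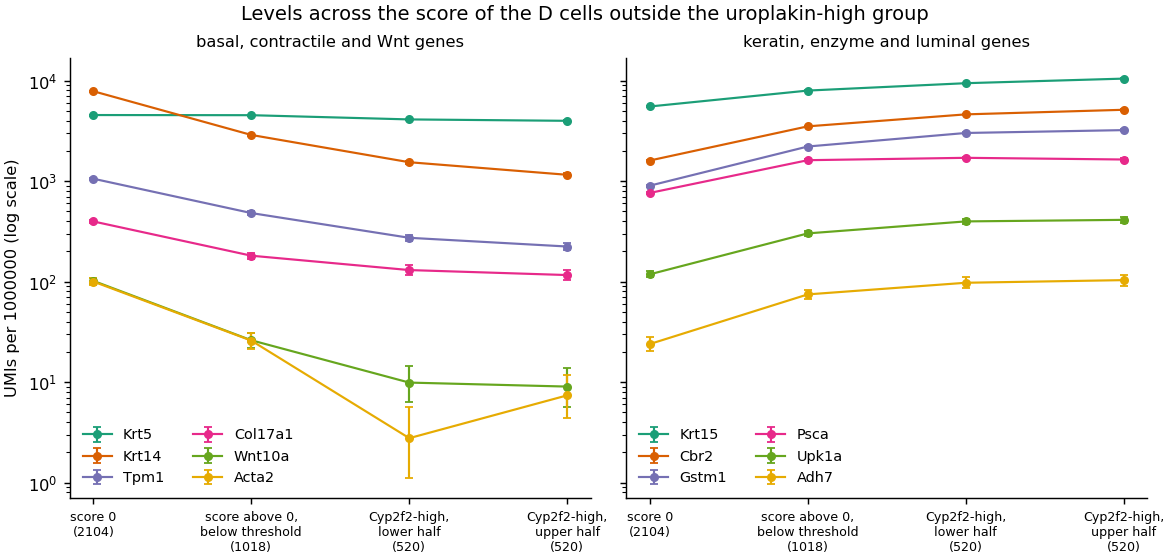
Levels (UMIs per 1000000, log scale, exact 95% Poisson intervals) in 4 ranges of the score among the 4162 D cells outside the uroplakin-high group. Krt14 goes from 7826 to 1154 CPM, Krt5 from 4535 to 3973 and Cbr2 from 1601 to 5116.

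The score was then read in the P library at the threshold of the D cells. Of 6818 kept P cells, 208 (3.05%, 2.66 to 3.49%) reached it, against 1179 of 4896 kept D cells (24.1%), 138 of the latter being uroplakin-high. The D share is set mostly by the rule, because the threshold was taken from the D cells themselves. Median depth was 3966 UMIs in the 208 cells and 3384.5 in the other P cells. Between the 208 and the other P cells, 150 of 9486 genes (1.58%) were at least 2-fold higher and 552 (5.82%) at least 2-fold lower. The cells were chosen on the score genes, and the counts behind the other genes are small.

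The genes that were at least 2-fold higher in D, other than the score genes, numbered 30, and 26 of them had at least 20 UMIs in P. Of these 26, 14 (53.8%) were at least 2-fold higher in the 208 P cells and 2, Gsta3 and Stat5a, at least 2-fold lower, where 2.27% of all 9341 genes counted were at least 2-fold higher. Akr1c18 had 19 UMIs in the 208 cells and 77 in the others, a log2 ratio of 2.71 (1.91 to 3.45). Olfm4, a secreted glycoprotein of intestinal crypts, had 28 and 52 UMIs (3.84, 3.12 to 4.53), Mlph 21 and 202 (1.47, 0.74 to 2.12), Slc7a11 64 and 735 (1.21, 0.82 to 1.58) and Ces1d 7 and 51 (1.87, 0.48 to 3.01). Prom1 and Gsta3 did not follow, with -0.20 (-1.85 to 1.05) and -1.36 (-4.42 to 0.52). Tff1 had 26 UMIs against 2, but 1 P cell held 25 of its UMIs, so this ratio is that of a single cell.

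Of the 199 genes at least 2-fold lower in D, 181 were counted in P, and 95 (52.5%) were at least 2-fold lower and 3, Ccdc141, Fndc1 and Ggt5, at least 2-fold higher there, where 4.89% of all genes counted were at least 2-fold lower. Krt14 had a log2 ratio of -2.22 within P, beside -1.74 in D. Contractile genes had a median of -1.0 with 4 of 8 at least 2-fold lower, and proliferation genes of -1.40 with 9 of 12. Intermediate markers had a median of 0.39 and none 2-fold away. Beside the score genes, and among genes with at least 100 UMIs in P, those furthest above in the 208 cells were Cxcl15, a chemokine of mucosal epithelia, with 87 UMIs against 221 (log2 3.39, 3.01 to 3.75), Ccr2, a chemokine receptor, with 174 against 625 (2.89, 2.64 to 3.13), Tspan13 (2.63), Naip5 (2.51) and Krt10 (2.27). Naip5 is 1 of several close paralogs. In D, where Ccr2 had too few UMIs to be counted, it was at 10.5 CPM in Cyp2f2-high cells (7.82 to 13.7), 2.24 in the other remaining cells (1.46 to 3.29) and 1.34 in uroplakin-high cells (0.434 to 3.12).

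Because Krt1 and Tspan1 seldom met in a cell, Cyp2f2-high cells with one and without the other were compared. This split was chosen after values were seen. It set 157 Krt1-positive against 343 Tspan1-positive cells, with 38 that held both and 502 that held neither, and with medians of 3565 and 4007 UMIs. Leaving out the score genes, 13 of 3412 genes with at least 100 UMIs (0.381%) were at least 2-fold higher in Krt1-positive and 20 (0.586%) at least 2-fold higher in Tspan1-positive cells.

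Among the 13 genes higher in Krt1-positive cells, Krt14 was at 2984 CPM against 1020, Krt13 at 101 against 19.4, Krt10, the partner of Krt1 in the epidermis, at 105 against 35.5, and Krt6a at 442 against 188. Trp63 was at 135 against 54.8 and Col17a1 at 213 against 99.5 CPM. Perp, a desmosomal protein, was at 753 against 357 and Fabp5, a fatty acid carrier of keratinocytes, at 80.2 against 26.9. Krt5 was at 5795 against 3452, a log2 ratio of 0.75 (0.69 to 0.80). Other keratins lay the opposite way, with Krt8 at 720 against 1009 CPM and Krt18 at 323 against 525.

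Tspan1-positive cells were higher in Lgals4, at 61.3 against 15.8 CPM, Olfm4, at 268 against 72.3, Clu, at 636 against 231, and Upk1a, at 475 against 210. Nupr1, a stress-induced chromatin protein, was at 3630 against 1740 CPM. Gsdmc2, Gsdmc3 and Gsdmc4, gasdermins that share much sequence with each other, were at 522 against 247, 187 against 64.4 and 83.4 against 32.9. Cyp2f2 was at 869 CPM in Tspan1-positive and 544 in Krt1-positive cells, and Agr2 at 36.6 against 18.4. Both are score genes on which the cells were chosen, so these gaps are set in part by the rule.

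The same split was made where no Cyp2f2-high cell took part. In the other kept D cells, 114 Krt1-positive and 206 Tspan1-positive cells were compared, and in the P library 160 and 320. All 13 genes higher in Krt1-positive cells kept that sign in both, with medians of 0.84 and 0.57. Krt14 had log2 ratios of 1.40 and 1.66, and Krt10 of 1.96 and 2.75. Of the 20 genes higher in Tspan1-positive cells, 19 kept the sign in the other D cells and 11 of 13 counted in P, with medians of -0.66 and -0.48, beside 0.01 and -0.01 for all genes counted. Edn1 was the exception in D, at 0.56, and Upk1a and S100a4 were those in P, at 0.10 and 0.37. The other kept D cells include the uroplakin-high ones, which were 79 of the 208 cells with Tspan1 and 15 of the 116 with Krt1. The gap in depth between both kinds of cell ran the same way in all 3 comparisons. The parts of depth and of the uroplakin-high cells were not tested.

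**Figure D5:**
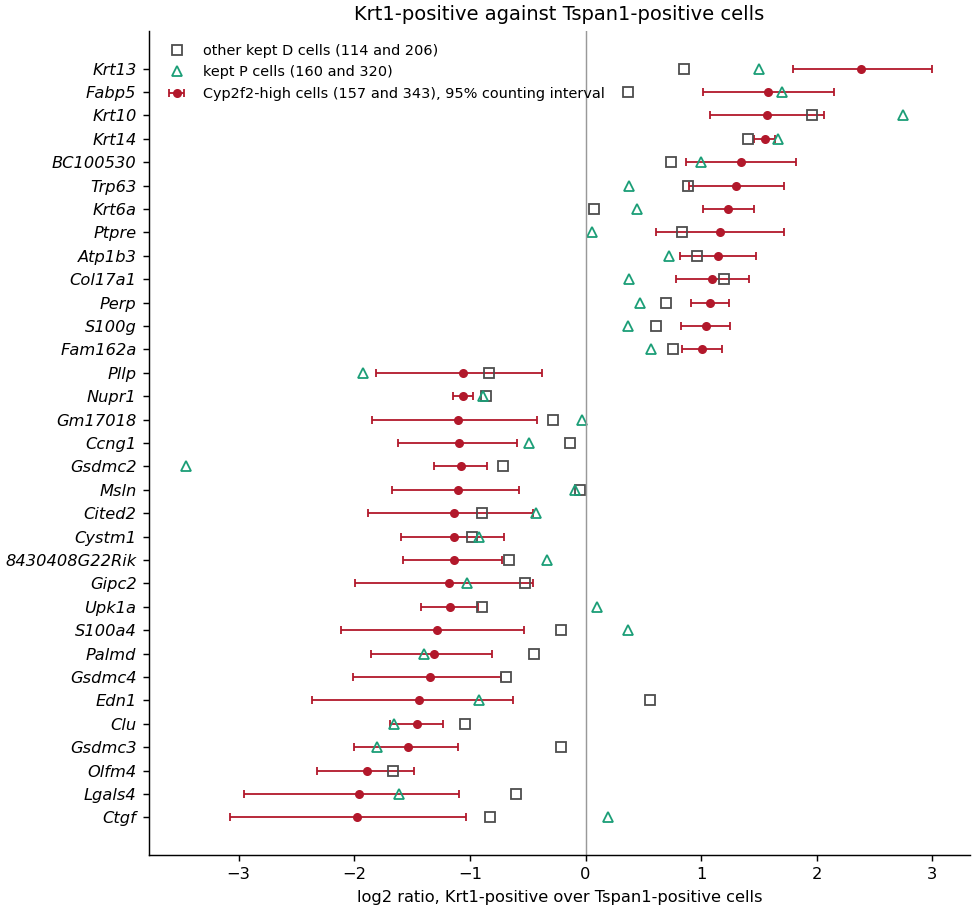
Log2 ratios of Krt1-positive over Tspan1-positive cells for the 33 genes at least 2-fold apart among Cyp2f2-high cells (red, exact 95% counting interval), with the same ratios in the other kept D cells (squares) and in the kept P cells (triangles). Krt14 lies at 1.55, 1.40 and 1.66 and Clu at -1.46, -1.05 and -1.66.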

How the data were processed

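The deposited matrices hold raw UMI counts per gene and cell barcode, which the authors made, by the submitters' processing notes, with bcl2fastq 2.19.0 and Cell Ranger 3.0.2 against GRCm38/mm10, with no normalization, for 6975 D and 8194 P barcodes. Cells with over 800 genes and at most 12% mitochondrial UMIs were kept, 4896 in D (20305621 UMIs) and 6818 in P (26681469 UMIs). There were 10 barcodes shared by both libraries and 6 among kept cells. The score was the mean of ln(1 + 10000 × UMIs / cell total) over 6 genes, and ties were broken by barcode.

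UMIs were summed over cells and given per 1000000 (CPM). Levels have exact Poisson, shares exact binomial (Clopper-Pearson) and ratios exact conditional binomial intervals at 95%, for counting error only. Genes with at least 100 UMIs in both groups together were compared, and list genes with at least 20. Counts of genes past 2-fold and list medians had 0.5 UMI added to each count. Named genes were the score genes, Tff1, the uroplakins, the 15 furthest in each direction from the other D cells and, from every list, the genes furthest from the other remaining cells, up to 4 in each direction. Ccr2, Stat5a, Ccdc141, Fndc1, Ggt5, Tpm1, Cxcl15, Naip5, Olfm4, Krt5 and the genes of the Krt1 and Tspan1 split were named after their values were seen. Cells and lists were chosen with earlier results of these data known. Quartiles of the score had been planned, but since 2104 remaining cells were at 0, 4 unequal ranges were used. The rule applied within P ended on ties at a score of 0, and the D threshold was used there instead. Scrublet, run in scanpy 1.11.5 for doublets, called 0 of 4896 cells at its automatic threshold, so no cell was removed as a doublet. Gene coordinates are from GENCODE vM21, whose build is that of the authors, and upstream bases from RefSeq. Python 3.11.15 and scipy 1.17.1 were used, and scripts were tested on simulated data.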

Additional observations from a re-analysis of the deposited data

Results flagged for a closer look

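Barcodes left out by the filter still held score genes. Per 1000000 non-mitochondrial UMIs, the 2079 D barcodes left out held 267 of Cyp2f2 (246 to 291) against 29.1 (22.1 to 37.6) in the 1376 P barcodes left out. Krt1 was at 26.1 (19.6 to 34.0) against 6.53 (3.47 to 11.2). Tspan1 was at 26.1 (19.6 to 34.0) against 8.53 (4.97 to 13.7). These barcodes entered no comparison above, and their levels were higher in D than in P.

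Gsta3 was higher in Cyp2f2-high D cells than in all other D cells (log2 1.21) and lower in the P cells at the threshold than in the other P cells (-1.36, -4.42 to 0.52, from 2 UMIs). The difference between D and P was not tested.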

How the results depend on the processing

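The 35 genes at least 2-fold higher and 199 at least 2-fold lower than in all other D cells depended most on the thresholds. They were 223 and 493 at 1.5-fold, 6 and 92 at 3-fold, and 143 and 522 with a minimum of 20 UMIs. With cells chosen on one of 2 equal sets of the UMIs and levels read from the other they were 22 and 130. There the UMIs were fewer and 75.2% of the cells were Cyp2f2-high cells by the full counts. The part of each was not tested. Without Cyp2f2 in the score they were 10 and 85, and 49 of the 1040 cells then taken were at a score of 0 and 699 were Cyp2f2-high cells. With each cell weighing the same 64 were higher, and against the remaining cells without the uroplakin-high 15%, 58. Against these remaining cells the median of the uroplakins turned from -1.34 to 0.55, with Upk1b at 0.24, Upk3a at 0.55 and Upk3b at 0.16 (0.5 UMI added). Under the other alternatives both counts stayed within 1.5 times. Doublets could not be left out as planned, since Scrublet called 0 cells. Without the 6% of cells with the highest Scrublet scores, chosen after seeing the data, the counts were 36 and 225. Of the 32 named genes at least 2-fold away, 3 of 768 values changed sign, those of the uroplakins above.

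Detection among Cyp2f2-high cells fell on thinning to 2100 UMIs, to 82.9% for Cyp2f2, 21.7% for Tspan1, 11.9% for Krt1, 8.16% for Agr2, 6.75% for Lgi2 and 0.504% for Reg1. The share of P cells at the threshold was 3.66% with over 1000 genes and at most 10% mitochondrial UMIs, 2.16% without Agr2 and 2.64% without Tspan1, and could not be given without Cyp2f2, since the D threshold was then 0. The rule applied within P gave 12 genes at least 2-fold higher, and 15 without dropping uroplakin-high cells. It took 1449 cells, while 5843 of the 6818 kept P cells were at a score of 0. It dropped 1023 cells, while 303 held a uroplakin UMI. Both groups were thus filled in part by ties broken by barcode, and these 2 counts cannot show how stable the result is. Reg1 had a log2 ratio of 0.81 against all other D cells and of 3.60 without 2 uroplakin-high cells, so it rests on them. No paired analysis was possible because each group held 1 library. With 1 library a condition, no value can be separated from the library.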
